A study of Mus musculus with 6 samples.

Results

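The genes described here make up the oxidant defence of the cell: the transcription factor NRF2 and its inhibitor, the enzymes that make and use glutathione, thioredoxin and its partners, the peroxide and superoxide scavengers, ferritin and the aldehyde oxidases. The list of 37 mouse gene symbols was drawn up by name with earlier results of these data known, so it is not independent of them. All 37 were found among the 16540 genes of the deposited table and passed the filter on low values. They were measured in 6 RNA-seq libraries of NIH-3T3 cells, an established line of mouse embryonic fibroblasts. The series asks, per its title, whether fibroblasts need pyruvate carboxylase to make collagen in the tumor microenvironment. Every library came from an uncloned pool that carried Cas9 and 1 guide RNA from a lentivirus, had been selected with 2 ug/mL puromycin and had spent 48 h in DMEM with 0.2 mM glutamine and 10% dialyzed serum. The control pool carried R26 sg1, named after the Rosa26 locus, and the other pools carried PC sg2 or PC sg5, 2 guides against pyruvate carboxylase. Each guide had 2 libraries, so there were 2 control and 4 PC libraries. Whether the 2 libraries of a guide stem from different cultures is not stated, so the p-values reflect only how far these libraries spread, which may be technical.

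NRF2, the protein of Nfe2l2, is held in the cytoplasm and sent to the proteasome by KEAP1, a sensor with reactive cysteines. When oxidants or electrophiles modify KEAP1, NRF2 enters the nucleus, pairs with a small MAF protein and binds antioxidant response elements next to genes of glutathione synthesis, detoxification and iron handling. Glutathione is a tripeptide of glutamate, cysteine and glycine, so its supply depends on amino acids as well as on its own enzymes. In bulk libraries a change in the share of cells of a kind and a change in RNA per cell cannot be told apart.

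The libraries held between 22895172 reads (PC sg5 replicate 2) and 71710049 reads (control replicate 2), recovered from the normalised counts. A floor of 3 reads then lies between 2.18 and 6.41 normalised counts per library, for counting error only. The targeted gene Pcx had 2914 and 3015 normalised counts in control libraries, 316 and 375 under PC sg2, and 713 and 716 under PC sg5, which follows the labels. Of 10 fibroblast markers 9 were measured, Col1a1, Vim and Pdgfra among them, and all 9 fell in the PC libraries, with summed levels of 1827852 and 1895241 normalised counts in control libraries and 998779 to 1035648 in the PC libraries. Leukocyte and macrophage markers were scarce: 6 of 9 were measured and 5 of these fell, and their summed level went from 2033 and 2139 to between 1290 and 1346 normalised counts. Ptprc, Adgre1 and Itgam were not found among the genes of the deposited table. Only 1 of 6 epithelial markers (Cdh1) and 1 of 5 adipocyte markers (Fabp4) was measured, and both fell. Of 5 endothelial markers 2 were measured, and neither passed the threshold given below. Their summed level was 45.5 and 36.3 normalised counts in control libraries and 32.4 to 53.0 in the PC libraries. Among all tested genes, 33.6% fell and 34.3% rose in the PC libraries. The part of such markers in the results below was not tested.

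The 37 genes did not move as 1 block. In the comparison of both PC guides against the control, 32 of them (86.5%) passed the threshold, a limma Benjamini-Hochberg adjusted p under 0.05. Among all 16526 genes tested, 67.9% passed, and 78.5% did among genes whose mean reached 50 normalised counts, as that of each member does. Of the 37 genes 11 (29.7%) rose, against 34.3% of all tested genes, and 21 (56.8%) fell, against 33.6%. At least 2-fold changes were found for 2 genes upwards (5.41%, against 6.48% of all genes) and 8 downwards (21.6%, against 11.3%). The PC and control libraries did not overlap for 33 of the 37 genes, against 73.2% of all tested genes. The median log2 difference was -0.28 for the members and -0.01 for all tested genes. Log2 differences from limma are on the log2(normalised count + 1) scale, while a value given as times the control is a ratio of mean normalised counts.

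**Figure D1:**
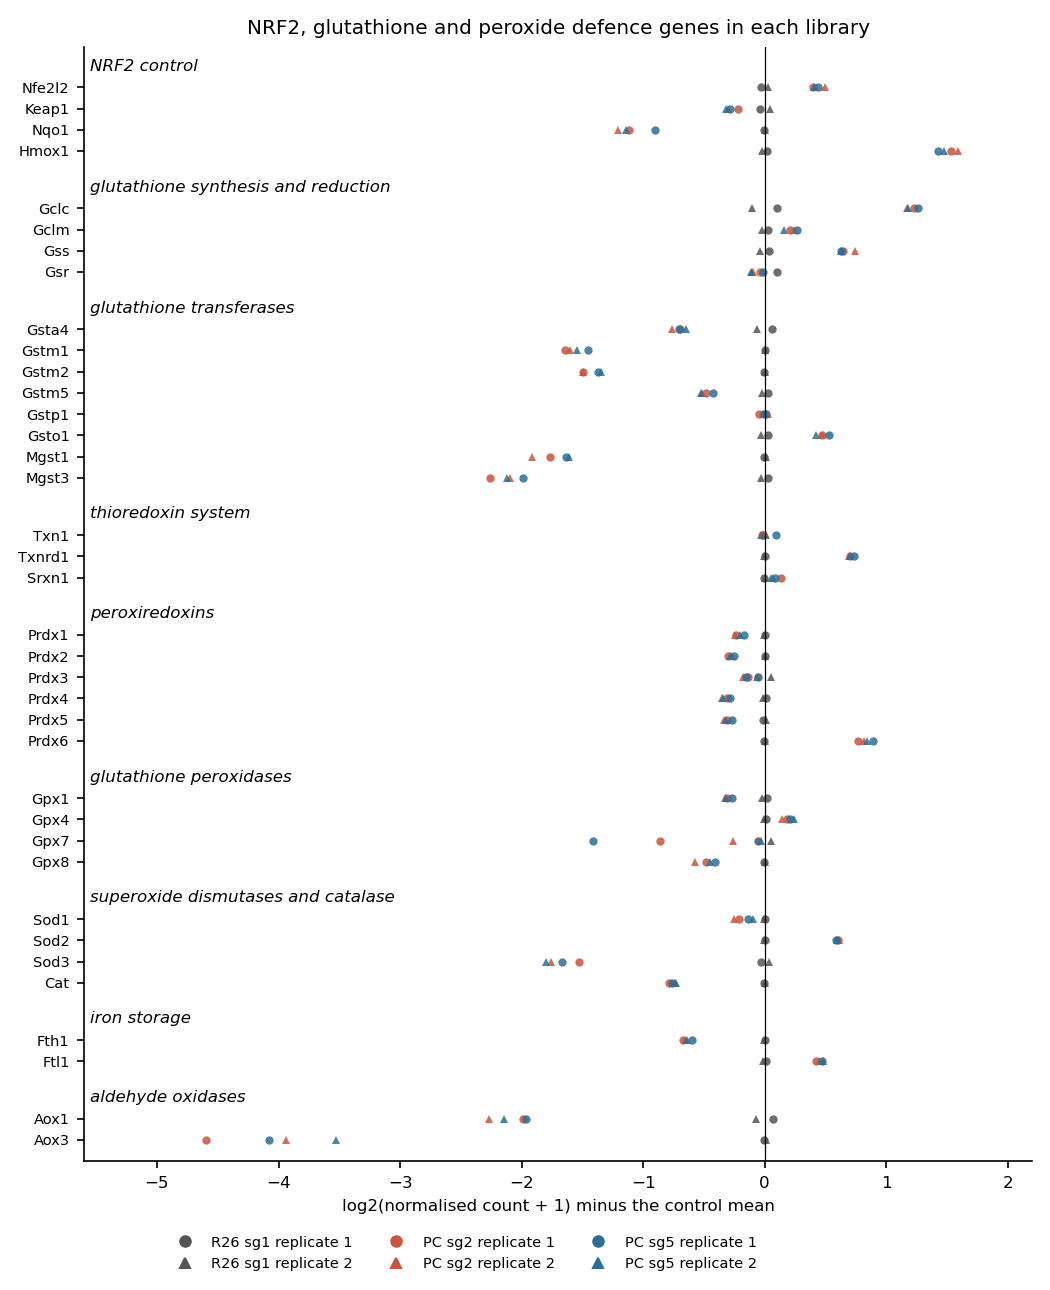
Log2(normalised count + 1) of each of the 37 genes in each of the 6 libraries, minus the mean of the 2 control libraries; colour marks the guide and shape the replicate. Hmox1 and Gclc lie farthest to the right and Aox3, Mgst3 and Aox1 farthest to the left, and the libraries of both PC guides lie together for most genes.

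Promoter sequences, taken from RefSeq (GRCm38.p6) as windows of 250 bases before to 50 bases after a transcription start, were available for 31 of the 37 genes. They were searched for the core of the antioxidant response element, TGACNNNGC, on both strands. This core occurred in 8 of the 31 genes (25.8%) and in 16.8% of all 11060 genes of the table with a window. The shorter core TGANNNNGC, which includes every match of the first, occurred in 11 of the 31 (35.5%) and in 47.6% of all genes. The following stretches are shown because they hold the core before a RefSeq transcription start of genes that moved in opposite directions. Those of Txnrd1 and Mgst1 lie inside the gene as GENCODE M21 annotates it, before a start that is not its outermost one. In each line capitals mark the core, each is written 5′ to 3′ on the strand of its gene, and a core on the other strand appears as its reverse complement.
Nfe2l2 (chr2:75704879-75704913, minus strand): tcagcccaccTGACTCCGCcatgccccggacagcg
Gclm (chr3:122245407-122245447, plus strand): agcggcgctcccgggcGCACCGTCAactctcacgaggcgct
Txnrd1 (chr10:82859098-82859138, plus strand): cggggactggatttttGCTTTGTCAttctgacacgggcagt
Prdx1 (chr4:116685450-116685490, plus strand): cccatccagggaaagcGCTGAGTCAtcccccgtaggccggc
Mgst1 (chr6:138140455-138140495, plus strand): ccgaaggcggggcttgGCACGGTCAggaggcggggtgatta
Sod1 (chr16:90220690-90220730, plus strand): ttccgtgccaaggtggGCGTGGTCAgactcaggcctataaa
Nfe2l2, Gclm and Txnrd1 rose in the PC libraries, whereas Prdx1, Mgst1 and Sod1 fell. Over all 8 genes with the core, 3 rose, 4 fell (Gstm5 is the other one) and 1, Srxn1, did not pass the threshold. Over the 23 genes without it in the searched window, 5 rose, 15 fell and 3 did not pass. Sequence farther from the start was not searched. A match in these letters is a description of the window and not a binding site.

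The NRF2 control genes moved in both directions: Nfe2l2 and the target Hmox1 rose, and Keap1 and the target Nqo1 fell. Shares for all tested genes were 34.3% higher and 33.6% lower. Nfe2l2 (ENSMUSG00000015839, GRCm38 chromosome 2, 75675513 to 75704641, minus strand) had 4821 and 5035 normalised counts in control libraries, 6476 and 6947 under PC sg2, and 6665 and 6528 under PC sg5. Every PC library lay above both controls, and the log2 difference was 0.43 ± 0.03 (SE). Its inhibitor Keap1 had 2824 and 2993 in control libraries, 2500 and 2355 under PC sg2, and 2386 and 2334 under PC sg5, a difference of -0.28 ± 0.04. Other genes' exons cover 10.9% of the exon bases of Keap1, mostly those of Gm16754.

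Hmox1 encodes haem oxygenase, which breaks haem down into biliverdin, iron and carbon monoxide. It lies on GRCm38 chromosome 8 (75093621 to 75100589, plus strand) and went from 5869 and 5716 normalised counts in control libraries to 16729 and 17493 under PC sg2 and 15576 and 16091 under PC sg5. The mean rose from 5792 ± 109 (SD, n = 2) to 16472 ± 828 (SD, n = 4), 2.84 times the control level, and the log2 difference of 1.51 ± 0.03 (SE) was the highest of the 37 genes. Nqo1 encodes the quinone reductase that is widely used as a readout of NRF2. It had 3272 and 3289 in control libraries, 1513 and 1419 under PC sg2, and 1759 and 1490 under PC sg5. All 4 PC libraries were below the controls, at 47.1% of the control mean, and the log2 difference was -1.09 ± 0.06 (SE). For these 4 genes the adjusted p (limma, Benjamini-Hochberg) ran from 8.24e-21 to 7.85e-06.

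Hmox1 and Nqo1, both known targets of the same factor, thus moved apart within each library. The ratio of Hmox1 to Nqo1 counts was 1.79 and 1.74 in control libraries and between 8.85 and 12.3 in the PC libraries. An exact permutation test over the 15 ways to pick 2 of the 6 libraries gave a two-sided p of 0.0667, the smallest this design allows. This ratio and the others given for pairs of genes were chosen after the values had been seen. Their permutation p-values therefore add nothing to the ranges.

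**Figure D2:**
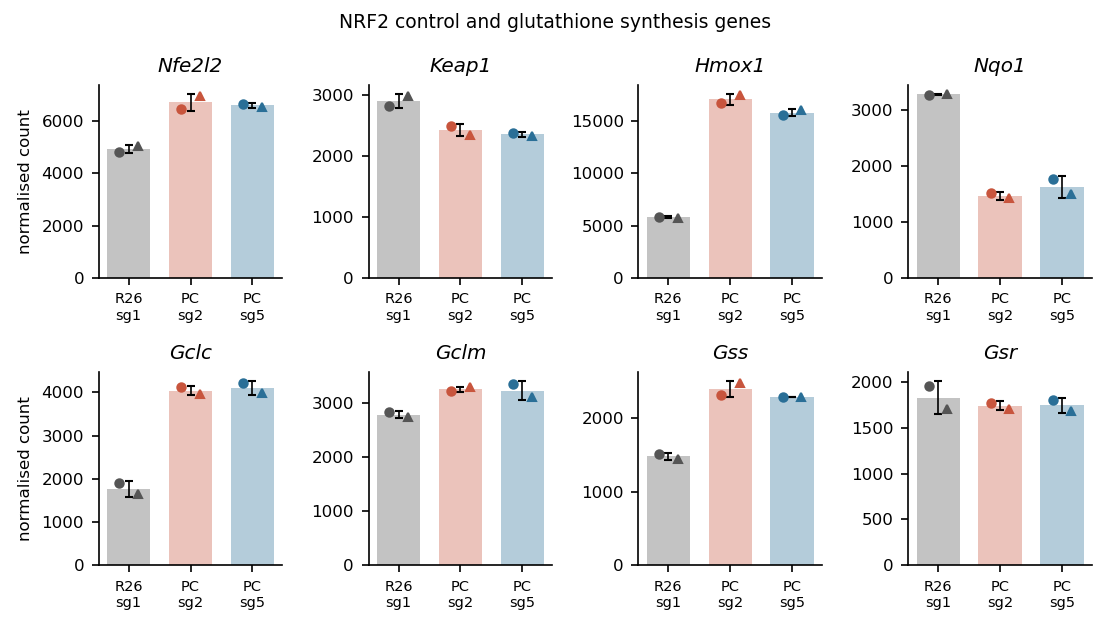
Normalised counts of Nfe2l2, Keap1, Hmox1 and Nqo1 (upper row) and of Gclc, Gclm, Gss and Gsr (lower row); bars are means of 2 libraries per guide, error bars are SD, and points are libraries. The PC bars stand above the control bars for Nfe2l2, Hmox1, Gclc, Gclm and Gss and below them for Keap1 and Nqo1.

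Genes around NRF2 were read from a list of 12 partners and brakes. Of these 8 rose (66.7%), 3 fell (25%) and 1 did not pass (median 0.34), where 34.3% of all tested genes rose and 33.6% fell. The 4 with the smallest adjusted p all rose. Sqstm1, which encodes p62, a receptor of selective autophagy that binds KEAP1, had 36644 and 36550 normalised counts in control libraries and between 84036 and 86238 in the PC libraries, a log2 difference of 1.21 ± 0.02 (SE), with other genes covering 17.3% of its exon bases. The small MAF genes Maff, Mafk and Mafg, whose proteins pair with NRF2 and with its competitor BACH1, rose by 1.02, 0.85 and 0.46.

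Glutathione synthesis genes were higher, most of all the catalytic subunit of the first step. Beside them, 34.3% of all tested genes were higher and 33.6% lower. Glutamate-cysteine ligase, which joins glutamate to cysteine, consists of a catalytic subunit (Gclc) and a modifier subunit (Gclm) that tunes it. Gclc had 1892 and 1636 normalised counts in control libraries, 4119 and 3966 under PC sg2, and 4219 and 3993 under PC sg5. The PC libraries held 2.31 times the control mean, with no overlap, and the log2 difference was 1.21 ± 0.05 (SE, adjusted p = 2.67e-15 by limma). Gclm had 2834 and 2739 in control libraries, 3218 and 3290 under PC sg2, and 3357 and 3104 under PC sg5, a smaller difference of 0.22 ± 0.04. The ratio of Gclc to Gclm was 0.668 and 0.597 in control libraries and 1.21 to 1.29 in the PC libraries (exact permutation p = 0.0667, two-sided, the smallest possible).

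Gss encodes glutathione synthetase, which adds glycine in the second step. Its counts were 1519 and 1445 in control libraries, 2321 and 2478 under PC sg2, and 2296 and 2287 under PC sg5, a log2 difference of 0.66 ± 0.05 (SE). The PC libraries were all higher, and 15.4% of its exon bases are shared with other genes. Of its 50-base windows 10.3% occur in other genes, 4.15% in Acss2, the largest partner. Acss2 itself was lower in the PC libraries (134 to 207 normalised counts, against 586 and 631). Gsr encodes glutathione reductase, which returns oxidised glutathione to its reduced form with NADPH. It had 1961 and 1704 in control libraries, 1777 and 1707 under PC sg2, and 1807 and 1689 under PC sg5. The groups overlapped, the log2 difference was -0.07, and its 95% interval of -0.19 to 0.05 allows only small changes. Without control replicate 2 the difference of Gsr was -0.17 and passed the threshold (adjusted p = 0.0375 by limma).

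Of 16 further genes of glutathione supply and breakdown, 10 rose (62.5%), 4 fell (25%) and 2 did not pass (median 0.30). The comparison for these 16 is 34.3% higher and 33.6% lower among all tested genes. Chac1, whose product cleaves glutathione in the cytosol, rose most among the 4 with the smallest adjusted p, from 1275 and 1388 normalised counts in control libraries to between 5894 and 6399, a log2 difference of 2.22 ± 0.04 (SE). Slc7a11 and Slc3a2 encode the chains of the cystine and glutamate exchanger that brings in cystine for glutathione. They rose by 1.20 and 0.65, and Esd, which encodes S-formylglutathione hydrolase, rose by 0.77.

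Glutathione transferases, which couple glutathione to electrophiles, were mostly lower. Of all tested genes 33.6% fell and 34.3% rose. Among the 8 members there were 6 falls (75%), 1 rise (12.5%) and 1 gene short of the threshold (median log2 difference -1.07). Mgst3, a microsomal member, fell the most among them: 2998 and 2878 normalised counts in control libraries, 611 and 685 under PC sg2, and 739 and 675 under PC sg5, or 23.1% of the control mean (log2 difference -2.12 ± 0.06, SE). Mgst1, the microsomal enzyme found in the endoplasmic reticulum and the outer mitochondrial membrane, had 4651 and 4712 in control libraries, 1375 and 1244 under PC sg2, and 1504 and 1533 under PC sg5 (-1.73 ± 0.05). For both genes the PC libraries were far below the controls. The cytosolic mu class genes lie in 1 cluster on GRCm38 chromosome 3. Gstm1 (108012255 to 108017973, minus strand) had 6857 and 6869 in control libraries, 2194 and 2261 under PC sg2, and 2505 and 2351 under PC sg5. Gstm2 (107981702 to 107986453, minus strand) had 4827 and 4860 in control libraries, 1717 and 1719 under PC sg2, and 1872 and 1905 under PC sg5. Their log2 differences of -1.56 ± 0.04 and -1.43 ± 0.04 contrast with the smaller -0.49 ± 0.06 of Gstm5 from the same cluster, which went from 1559 and 1506 to between 1064 and 1143.

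Copies of these genes limit what the counts resolve. Of the distinct 50-base windows in the annotated transcripts of Gstm1, 18.9% also occur in transcripts of other genes, mostly the pseudogene Gstm2-ps1, and for Gstm2 the share is 5.65%. For Gstm5, 13.9% of the exon bases overlap other genes, mainly 4933431E20Rik, which was lower too (920 to 1071 normalised counts in the PC libraries, 1566 and 1553 in control libraries). Gsta4, an alpha class enzyme that acts on the lipid peroxidation product 4-hydroxynonenal, had 1779 and 1633 in control libraries and 1006 to 1086 in the PC libraries, a log2 difference of -0.70 ± 0.06 (SE).

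Gsto1 and Gstp1 differed from the other transferases. Gsto1, an omega class enzyme with reductase activity, rose from 13329 and 12787 normalised counts in control libraries to 18090 and 18059 under PC sg2 and 18825 and 17453 under PC sg5, a log2 difference of 0.47 ± 0.03 (SE). Gstp1, the pi class enzyme, had 8205 and 8055 in control libraries, 7870 and 8280 under PC sg2, and 8089 and 8204 under PC sg5. Its groups overlapped, and the 95% interval of its log2 difference was -0.07 to 0.06. Of its windows 33.7% are shared with Gstp2, which had 92.5 and 106 normalised counts in control libraries and 38.2 to 62.7 in the PC libraries. For the 7 transferases that passed, the adjusted p (limma, Benjamini-Hochberg) ran from 8.80e-19 to 1.21e-07. In a list of 20 further genes of these families 13 were tested, of which 7 fell (53.8%), 2 rose (15.4%) and 4 did not pass (median -1.11). Of all tested genes 33.6% fell and 34.3% rose. Ptges, the microsomal prostaglandin E synthase, fell by 1.12 ± 0.03 (SE), Gstt1 by 1.95 ± 0.16 and Mgst2 by 2.05 ± 0.17, while Gsto2 rose by 1.39 ± 0.08, so the omega class genes measured were both higher.

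In the thioredoxin system the reductase rose and the other members did not pass the threshold. Thioredoxin (Txn1) is a small protein that reduces disulfides, thioredoxin reductase (Txnrd1) recharges it from NADPH, and sulfiredoxin (Srxn1) repairs overoxidised peroxiredoxins. Txnrd1 had 8700 and 8659 normalised counts in control libraries, 14158 and 14043 under PC sg2, and 14422 and 14159 under PC sg5. The PC libraries held 1.64 times the control mean, a log2 difference of 0.71 ± 0.03 (SE, adjusted p = 4.07e-16 by limma). Txn1 had 8069 and 8198 in control libraries, 8003 and 7979 under PC sg2, and 8664 and 8024 under PC sg5, with overlapping groups and a 95% interval of -0.06 to 0.07. After rescaling without the 50 most abundant genes Txn1 passed under PC sg5 alone (0.09, adjusted p = 0.0396 by limma). Srxn1 had 2393 and 2409 in control libraries and 2490 to 2636 in the PC libraries. All 4 PC values of Srxn1 were higher, but the difference of 0.09 missed the threshold (adjusted p = 0.0737 by limma).

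Among peroxiredoxins, which reduce peroxides through a reactive cysteine, 5 fell slightly and Prdx6 rose. Among all tested genes, 33.6% fell and 34.3% rose. The groups did not overlap for any of the 6, where 73.2% of all tested genes did not overlap either. Prdx1 and Prdx2, the abundant cytosolic forms, had 15741 and 15604 and 14379 and 14385 normalised counts in control libraries, against 13234 to 13893 and 11641 to 12041 in the PC libraries, log2 differences of -0.22 and -0.28. Prdx4, the form of the endoplasmic reticulum, and Prdx5 differed by -0.32 and -0.31, and other genes, mainly Trmt112, cover 19.1% of the exon bases of Prdx5. The mitochondrial Prdx3 had 2442 and 2634 in control libraries, 2310 and 2247 under PC sg2, and 2283 and 2430 under PC sg5. Its difference of -0.13 ± 0.05 (SE) had an adjusted p of 0.0167 by limma. Without control replicate 2 it was -0.08 and no longer passed, and it was also lost without the intensity trend (-0.13) and after rescaling without the 50 most abundant genes (-0.09).

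Prdx6 differs from the other peroxiredoxins in drawing on glutathione and in also acting as a phospholipase. It had 5695 and 5737 normalised counts in control libraries, 9737 and 10057 under PC sg2, and 10594 and 10245 under PC sg5. The mean rose from 5716 ± 29.7 (SD, n = 2) to 10158 ± 358 (SD, n = 4), a log2 difference of 0.83 ± 0.03 (SE) with an adjusted p of 2.63e-16 by limma. Only 0.156% of its 50-base windows occur in other genes.

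Glutathione peroxidases also split. Gpx1, the cytosolic enzyme that reduces hydrogen peroxide, had 11298 and 10980 normalised counts in control libraries, 8966 and 8903 under PC sg2, and 9264 and 8922 under PC sg5 (log2 difference -0.31 ± 0.03, SE). Gpx4 reduces lipid hydroperoxides in membranes and thereby restrains ferroptosis, a form of cell death driven by iron and lipid peroxidation. It had 14130 and 13961 in control libraries, 15916 and 15546 under PC sg2, and 16238 and 16640 under PC sg5, a rise of 0.20 ± 0.03. Gpx1 was thus lower and Gpx4 higher in every PC library than in control libraries. Of the windows of Gpx4, 34.7% also occur in other genes, with Gpx4-ps2 as the main partner, which had 799 and 822 normalised counts in control libraries and 874 to 918 in the PC libraries. Gpx8, a peroxidase of the endoplasmic reticulum, had 4300 and 4328 in control libraries and 2894 to 3247 in the PC libraries (-0.48 ± 0.04). The related Gpx7 was scarce and uneven, with 94.7 and 102 in control libraries, 53.8 and 81.9 under PC sg2, and 36.4 and 96.2 under PC sg5. Its groups overlapped and its difference of -0.64 ± 0.30 did not pass (adjusted p = 0.0619 by limma). It passed without PC sg5 replicate 2 (-0.99) and without PC sg2 replicate 2 (-0.79), and also in the edgeR test on recovered reads (-0.63) and with the replicate number as a block (-0.64).

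The members also differ in a feature of their coding sequence. Gpx1, Gpx4 and Txnrd1 carry an in-frame TGA, which the ribosome reads as selenocysteine, the residue of their active site, and a script that read the annotated coding transcripts of the members found it in these 3 genes. The codon and its surroundings, from GENCODE M21 (GRCm38), are shown because these genes share the residue and not the direction of change; capitals mark the codon, and each is written 5′ to 3′.
Gpx1 (chr9:108339436-108339468, plus strand): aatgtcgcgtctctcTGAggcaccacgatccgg
Gpx4 (chr10:80054722-80054754, plus strand): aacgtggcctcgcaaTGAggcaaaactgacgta
Txnrd1 (chr10:82896022-82896054, plus strand): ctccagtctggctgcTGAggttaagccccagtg
It is codon 47 of 201 in Gpx1, codon 129 of 253 in the longest coding transcript of Gpx4, and codon 612 of 613 in that of Txnrd1. Txnrd1 and Gpx4 rose by 0.71 and 0.20, and Gpx1 differed by -0.31. A list of other thioredoxin, peroxidase and repair genes, which includes further selenoproteins, had 19 tested genes. Beside 34.3% higher and 33.6% lower among all tested genes, 6 of 19 rose (31.6%), 9 fell (47.4%) and 4 did not pass (median -0.15). The 4 with the smallest adjusted p were Sesn3, a sestrin (-1.61 ± 0.03, SE), Selenop, the selenium transport protein (-1.94 ± 0.04), the mitochondrial thioredoxin gene Txn2 (1.11 ± 0.03) and the nucleoredoxin gene Nxn (-0.95 ± 0.04). Txn2 thus went from 6085 and 5878 normalised counts in control libraries to between 12228 and 13336, while the cytosolic Txn1 did not pass.

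Superoxide dismutases turn superoxide into hydrogen peroxide, and catalase removes hydrogen peroxide in peroxisomes. The mitochondrial manganese enzyme gene Sod2 rose, and Sod1, Sod3 and Cat fell, where 34.3% of all tested genes rose and 33.6% fell. Sod2 had 2803 and 2794 normalised counts in control libraries, 4249 and 4288 under PC sg2, and 4197 and 4219 under PC sg5, a log2 difference of 0.60 ± 0.04 (SE). Transcripts of AC166110.4 hold 17.6% of its 50-base windows. The cytosolic Sod1 had 9207 and 9175 in control libraries, 7929 and 7696 under PC sg2, and 8370 and 8595 under PC sg5 (-0.18 ± 0.03). The ratio of Sod2 to Sod1 was 0.305 in both controls and 0.491 to 0.557 in the PC libraries (exact permutation p = 0.0667, two-sided, the smallest possible).

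Sod3 encodes the secreted enzyme, which binds to heparan sulfate in the matrix. Its counts were 6837 and 7167 in control libraries, 2425 and 2070 under PC sg2, and 2207 and 2014 under PC sg5, which is 31.1% of the control mean and a log2 difference of -1.69 ± 0.05 (SE). Cat had 3315 and 3334 in control libraries, 1921 and 1999 under PC sg2, and 1954 and 2005 under PC sg5, or 59.3% (-0.76 ± 0.04). For both genes the PC values were all below the controls. Over the dismutases and catalase the adjusted p (limma, Benjamini-Hochberg) ran from 2.80e-17 to 1.54e-05.

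The ferritin chains moved against each other. Ferritin stores iron in a shell of heavy chains (Fth1), which oxidise iron, and light chains (Ftl1), which help it mineralise. The RNAs of both chains carry an iron-responsive element near their 5′ end, a hairpin that iron regulatory proteins hold shut for translation when iron is short. The elements, from GENCODE M21 (GRCm38), are shown because they are nearly alike in genes whose RNA moved in opposite directions; capitals mark the loop, and each is written 5′ to 3′.
Fth1 (chr19:9982732-9982761, plus strand): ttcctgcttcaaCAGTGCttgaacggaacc
Ftl1 (chr7:45459778-45459807, minus strand): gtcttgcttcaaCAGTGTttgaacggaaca
They were found by a search of the sense strand for a C, any 5 bases and CAGTG, with 5 bases before the 6-base loop that pair with the 5 bases after it. The letters alone occurred in the first 200 bases of 7.63% of 53658 coding transcripts, and with the paired stem in 0.0839%, from 27 genes. No other member had the paired form there before its coding sequence.

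Fth1 fell from 114024 and 113273 normalised counts in control libraries to 71405 and 72055 under PC sg2 and 75198 and 72947 under PC sg5. This is 64.1% of the control mean, and the log2 difference was -0.64 ± 0.02 (SE, adjusted p = 1.20e-17 by limma). Ftl1 rose from 87937 and 86516 to 117127 and 119164 under PC sg2 and 120928 and 121645 under PC sg5, a log2 difference of 0.46 ± 0.02 (SE, adjusted p = 1.55e-15 by limma). The ratio of Fth1 to Ftl1 counts was 1.30 and 1.31 in control libraries and between 0.600 and 0.622 in the PC libraries (exact permutation p = 0.0667, two-sided, the smallest possible). Other genes cover 34.6% of the exon bases of Ftl1, with Gm10252 as the largest partner. Of the windows of Ftl1, 58.4% occur in other genes, most in the pseudogene Ftl1-ps1. Ftl1-ps1 had 208 and 181 normalised counts in control libraries and 254 to 297 in the PC libraries, so how the counting split reads between them bears on the level of Ftl1. For Fth1 the share of windows found elsewhere is 1.59%.

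**Figure D3:**
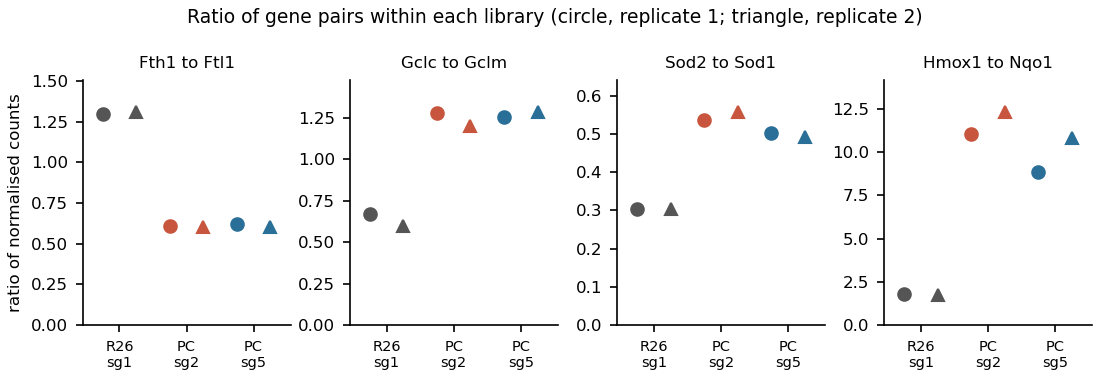
Ratio of the normalised counts of Fth1 to Ftl1, Gclc to Gclm, Sod2 to Sod1 and Hmox1 to Nqo1 in each library, on linear axes from 0; colour marks the guide. The 4 PC libraries lie apart from the 2 controls in each panel, below them for Fth1 to Ftl1 and above them for the other pairs.

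Of 14 tested genes of iron handling and haem, 5 rose (35.7%), 6 fell (42.9%) and 3 did not pass (median -0.01). Shares of 34.3% and 33.6% were seen among all tested genes. Ncoa4, the receptor that delivers ferritin to the lysosome, rose from 2826 and 2949 normalised counts in control libraries to between 5278 and 5389 (log2 difference 0.88 ± 0.04, SE). Cp, which encodes the ferroxidase ceruloplasmin, went from 13191 and 12840 to between 4382 and 4926 (-1.50 ± 0.04). Steap3, a ferrireductase gene, and Fech, the last enzyme of haem synthesis, had differences of -0.53 and -0.47.

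Both aldehyde oxidase genes fell, as did 33.6% of all tested genes, and Aox3 was the lowest of the 37 genes relative to control. These molybdenum enzymes oxidise aldehydes and heterocycles and release hydrogen peroxide, and the genes Aox1 (58029931 to 58106413, plus strand) and Aox3 (58113130 to 58200698, plus strand) are neighbours on GRCm38 chromosome 1. Aox3 had 305 and 309 normalised counts in control libraries, 11.7 and 19.1 under PC sg2, and 17.2 and 25.7 under PC sg5. The control mean was 16.7 times that of the PC libraries, and the log2 difference was -4.04 ± 0.29 (SE, adjusted p = 4.79e-11 by limma). As few as 12 reads lay behind a PC value, so the size of this fall is less precise than its direction. Aox1 had 1816 and 1642 in control libraries, 435 and 357 under PC sg2, and 441 and 389 under PC sg5, or 23.5% of the control mean (-2.09 ± 0.09, adjusted p = 4.82e-15 by limma). No window of Aox3 and 0.612% of those of Aox1 occur in other genes. Among 9 tested genes of the molybdenum cofactor and other molybdoenzymes 2 rose (22.2%), 4 fell (44.4%) and 3 did not pass (median -0.40). All tested genes gave 34.3% and 33.6%. Xdh, the xanthine oxidoreductase related to the aldehyde oxidases, had a difference of -0.40 ± 0.03 (SE), Marc2 one of -0.58 and the cofactor synthesis genes Mocs1 and Mocs2 ones of -0.70 and 0.48.

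Further enzyme genes that are known as NRF2 targets were mixed as well. Of 23 tested 5 rose (21.7%), 14 fell (60.9%) and 4 did not pass (median -0.21). The rates for all tested genes were 34.3% and 33.6%. Idh1, the cytosolic NADP isocitrate dehydrogenase, had 12739 and 12806 normalised counts in control libraries and 3094 to 3767 in the PC libraries, a log2 difference of -1.86 ± 0.04 (SE). Ugdh, which makes UDP-glucuronate, and Ephx1, the microsomal epoxide hydrolase, had differences of -1.05 and -1.02. Abcc4, an exporter of organic anions, rose by 1.23 ± 0.05.

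**Figure D4:**
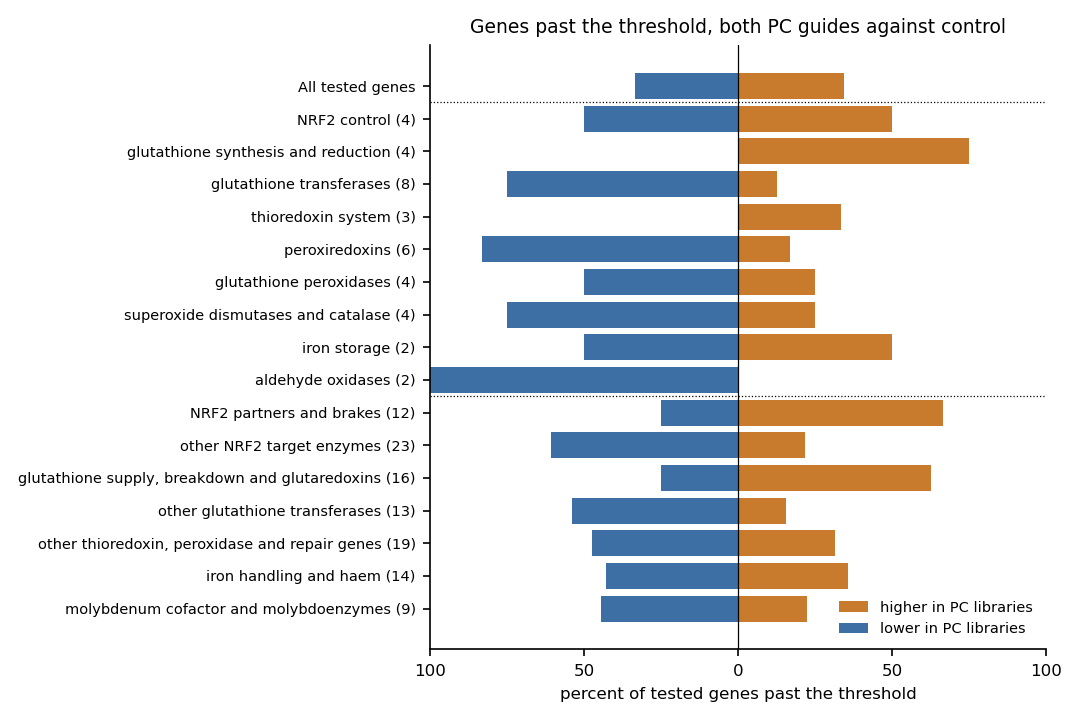
Percent of tested genes past the threshold (limma, adjusted p under 0.05) for both PC guides against control, lower to the left and higher to the right, for all tested genes, the 9 roles of the members and 7 lists of other pathway genes, with the number tested in parentheses. Glutathione synthesis and glutathione supply extend mainly to the right, and the transferases, peroxiredoxins and aldehyde oxidases mainly to the left of the zero line.

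Levels can be set against each other only per length. Divided by the annotated exon length, the control mean was highest for Ftl1 (65094 normalised counts per kb) and Fth1 (32761), followed by Gpx4 (8147), Txn1 (7739), Gpx1 (7730) and Gsto1 (6455). It was lowest for Aox3 (43.6) and Gpx7 (76.4). In the PC libraries Ftl1 and Fth1 stood at 89340 and 21015 per kb. The length is that of all annotated exons of a gene together, which understates the level of genes with long exons that are rarely used.

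Each PC guide was also compared with the control on its own, with the same 2 control libraries in both comparisons. Under PC sg2, 32 members passed (64.5% of all tested genes did): 11 rose and 21 fell, against 32.9% and 31.6% of all genes. Among genes whose mean reached 50 normalised counts, as that of each member does, 75.8% passed. Under PC sg5, 31 members passed (64.5% of all genes, and 75.3% of those with such a mean). Of the members 11 rose and 20 fell, against 32.6% and 31.8% of all genes. Prdx3 (-0.11) was the member that passed under PC sg2 (-0.15) and not under PC sg5. That call depended on the processing and on single libraries. Prdx3 was lost under PC sg2 after rescaling without the 50 most abundant genes (-0.12) and without the intensity trend (-0.15). With quantile normalisation it passed under PC sg5 (-0.13). It was also lost under PC sg2 without PC sg2 replicate 2 (-0.13) or control replicate 2 (-0.10). Under PC sg5 it passed without PC sg5 replicate 2 (-0.15) or control replicate 1 (-0.16). Likewise Txn1 passed under PC sg5 without PC sg5 replicate 2 (0.09), as did Gpx7 (-1.41), and Gpx7 passed under PC sg2 without PC sg5 replicate 1 (-0.56). Side by side, Hmox1 differed from the control by 1.56 under PC sg2 and 1.45 under PC sg5, Gclc by 1.20 and 1.22, Mgst1 by -1.84 and -1.62, Sod3 by -1.64 and -1.73, Fth1 by -0.66 and -0.62, and Aox3 by -4.27 and -3.81.

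The direct test of PC sg5 against PC sg2 called 0 of the 37 members by limma, where 0.242% of all genes were called, although Pcx itself was higher under PC sg5 by 1.05 ± 0.08 (SE). At an unadjusted p under 0.05, 10 members (27.0%) differed by limma, against 10.6% of all genes. EdgeR on recovered reads called 0, with 10 members (27.0%) and 9.49% of all genes at an unadjusted p under 0.05. DESeq2 called 0 of those it gave an adjusted p and gave none to 17 members, with 8 members (21.6%) and 6.16% of all genes at an unadjusted p under 0.05. The differences ran from -0.16 for Gpx7 to 0.46 for Aox3, the scarcest members. For 35 of the 37 the 95% interval of the difference lay within 0.5 of 0 on the log2 scale. The smallest unadjusted p belonged to Mgst1, with a difference of 0.22 (95% interval 0.10 to 0.33), followed by Sod1 (0.12, interval 0.05 to 0.19) and Hmox1 (-0.11, interval -0.18 to -0.04).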

How the data were processed

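Polyadenylated RNA was extracted with Trizol and made into libraries with the NEBNext Ultra kit, per the labels' protocols. Per the submitters' processing notes, the tools were STAR, featureCounts, DESeq2, Trimmomatic and bcl2fastq 2.17, on GRCm38. The sources used here do not give their settings, the annotation or the strand setting. From these the authors deposited a signal per gene, the count divided by a size factor of the library, for 16540 genes. Whole reads were recovered from the step of each library's values (100% of values came out whole, tolerance 0.01). Such values compare a gene between libraries, not genes with each other. Symbols came from GENCODE M21 (16491 of 16540 IDs matched).

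With limma 3.58.1 (R 4.3.3), log2(normalised count + 1) was tested: 1 model of 3 groups over 6 libraries, moderation with an intensity trend, two-sided, Benjamini-Hochberg adjustment over the 16526 genes that reached 10 normalised counts in 2 or more libraries. Residual degrees of freedom were 3, and prior ones 17.3 (median). The fits were tested on simulated data, in which far fewer genes changed than passed here and all libraries were independent. That test therefore does not cover the scaling or the error rate under the conditions of these data. Alternatives included edgeR 4.0.16 and DESeq2 1.42.0 on recovered reads. The 37 members, the 7 lists of other genes and the rule that names up to 4 genes per list by smallest adjusted p were chosen with earlier results of these data known.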

Additional observations from a re-analysis of the deposited data

Results flagged for a closer look

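The direct comparison of PC sg5 with PC sg2 passed the threshold for 3 of the genes looked at, none of them a member. The genes looked at were the 37 members, 106 tested genes of the other lists, the cell type markers and Pcx. Over all 16526 tested genes 40 (0.242%) passed. Pcx, the targeted gene, was higher with PC sg5 by a log2 difference of 1.05 (adjusted p = 6.60e-07 by limma), with 713 and 716 normalised counts against 316 and 375. S100a4, a fibroblast marker, was higher with PC sg5 by 0.32 (adjusted p = 1.56e-04 by limma), with 13012 and 11964 against 10241 and 9790, and other genes cover 51.7% of its exon bases. Selenop, the selenium transport protein gene, was higher with PC sg5 by 0.24 (adjusted p = 0.0434 by limma), with 2305 and 2529 against 2073 and 2027, where the controls had 8321 and 8740, and Ccdc152 overlaps it in the annotation.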

How the results depend on the processing

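No member that passed the threshold changed direction under any alternative run. For both PC guides against control, leaving out 1 library gave 32 to 33 members past it (11 higher, 21 to 22 lower), where 59.3% to 68.6% of all genes passed; for PC sg2 against control 31 to 33 (11 higher, 20 to 22 lower; all genes 57.0% to 66.6%); for PC sg5 against control 31 to 34 (11 to 12 higher, 20 to 22 lower; all genes 57.0% to 64.1%). For PC sg5 against PC sg2 it gave 0, where 0.0605% to 1.32% of all genes passed. Equal replicate numbers are not stated to share a culture or day, and the deviations of same-numbered libraries correlated at -0.02 to 0.03 across genes. With the replicate number as a block, 11352 of all genes passed for both guides, against 11222, and 1 member passed for PC sg5 against PC sg2 (1 higher), Mgst1 at 0.22 (adjusted p = 0.0428 by limma), where 160 of all genes passed, against 40. Rescaling without the 50 most abundant genes brought Srxn1 past the threshold (0.13), as well as Txn1 under PC sg5 (0.09). It ended the call of Sod1 under PC sg5 (-0.07), as did limma without the intensity trend (-0.12). Depth limits Gpx7 and Aox3 most.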
